A study of Mus musculus with 12 samples.

Results

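Tetrahydrobiopterin is the cofactor that the aromatic amino acid hydroxylases and the nitric oxide synthases need. The 7 genes described here encode the enzymes that make it, recycle it and use it for monoamines: Gch1, Pts, Spr, Qdpr, Pcbd1, Th and Ddc. They are 7 of the 54532 genes in a gene count table of mouse spinal cord, matched by gene symbol, and all 7 had enough counts to be tested. The list was chosen with the levels of these genes over the 4 groups of the study already known, so their levels and fold changes are given as a description, without a test.

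The study sequenced total RNA of spinal cord from C57BL/6 mice aged 2 to 3 months, in 12 libraries of 3 biological replicates per group. Mice without disease were controls (control basal) or Drd2mGFAP conditional knockouts (cKO basal), and mice at day 17 of experimental autoimmune encephalomyelitis (EAE) were likewise controls (control EAE) or Drd2mGFAP conditional knockouts (cKO EAE). Controls were littermates given as wild type, and the series calls the disease time its peak. Drd2 encodes the dopamine D2 receptor, and by its title the series concerns this receptor in astrocytes. The deleted exons, the Cre driver, any allele the controls carry and the way EAE was induced are not stated in the sources used here. EAE is an autoimmune inflammation of the central nervous system used as a model of multiple sclerosis.

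Synthesis of the cofactor starts from GTP. GTP cyclohydrolase (Gch1) makes the first and usually limiting step, 6-pyruvoyltetrahydropterin synthase (Pts) the next, and sepiapterin reductase (Spr) the last. After each hydroxylation the spent cofactor is restored by pterin-4a-carbinolamine dehydratase (Pcbd1) and dihydropteridine reductase (Qdpr). Tyrosine hydroxylase (Th) spends it to make L-DOPA, and aromatic L-amino acid decarboxylase (Ddc) turns L-DOPA into dopamine and 5-hydroxytryptophan into serotonin. Most monoamine fibres of the cord come from cell bodies in the brainstem, and GTP cyclohydrolase is known to be induced together with nitric oxide synthase 2 in activated macrophages.

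The promoters of 4 members are shown. Gch1 was the member with the highest EAE to basal ratio, and Th is the member that spends the cofactor. Qdpr and Ddc were the closest pair of members over the 12 libraries. The window of Pts, the member separated by genotype, is not shown. Each line is the 250 bases before a RefSeq transcription start in build GRCm38.p6, minus strand of the chromosome, written 5′ to 3′ in the direction of the gene. Windows matched 7 of 7 members, with 2 starts for Ddc, of which the downstream one is shown. Capitals mark matches on either strand to the motifs searched: TGACGTCA for the cAMP response element, CCAAT for the CCAAT box, TATAAA for the TATA box, TGANTCA for AP-1 and TTCNNNGAA for STAT sites, and, by name, the kappa B core and the interferon-stimulated response element.
Gch1 (chr14:47189414-47189663): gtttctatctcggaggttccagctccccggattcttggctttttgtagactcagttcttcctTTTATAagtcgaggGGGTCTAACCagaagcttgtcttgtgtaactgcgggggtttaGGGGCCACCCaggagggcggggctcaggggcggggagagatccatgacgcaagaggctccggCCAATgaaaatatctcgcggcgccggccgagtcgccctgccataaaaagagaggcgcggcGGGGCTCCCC
Th (chr7:142899996-142900245): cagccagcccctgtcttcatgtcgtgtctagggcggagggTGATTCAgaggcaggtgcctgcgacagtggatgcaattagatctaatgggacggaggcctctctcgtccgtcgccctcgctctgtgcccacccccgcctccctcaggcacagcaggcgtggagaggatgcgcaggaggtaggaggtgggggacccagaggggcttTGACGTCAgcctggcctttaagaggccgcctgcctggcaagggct
Qdpr (chr5:45450230-45450479): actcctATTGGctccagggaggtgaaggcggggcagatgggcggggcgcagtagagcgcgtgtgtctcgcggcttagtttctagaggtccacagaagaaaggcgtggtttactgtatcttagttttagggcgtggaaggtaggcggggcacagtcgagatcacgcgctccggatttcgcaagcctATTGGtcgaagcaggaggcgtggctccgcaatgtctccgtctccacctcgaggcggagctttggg
Ddc (chr11:11890409-11890658): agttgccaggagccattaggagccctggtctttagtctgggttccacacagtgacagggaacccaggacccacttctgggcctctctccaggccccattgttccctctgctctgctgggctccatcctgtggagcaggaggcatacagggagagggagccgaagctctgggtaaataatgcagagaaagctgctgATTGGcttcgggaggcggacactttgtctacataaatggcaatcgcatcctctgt

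The Gch1 window held 3 kappa B core matches, with first bases at -174, -132 and -10 from the start, a CCAAT match at -70 and a TATAAA match on the opposite strand at -188. The Th window held 1 cAMP response element at -45 and 1 AP-1 match at -210. The Qdpr window held 2 CCAAT matches on the opposite strand, at -244 and -65, and the Ddc window shown held 1, at -55. The upstream Ddc window, not shown, held a TATAAA match on the opposite strand at -68 and an AP-1 match at -129. The Pts window, not shown, held a kappa B core match at -41. Of 32851 RefSeq windows of the same length, 45.8% held the kappa B core, 33.8% CCAAT, 12.4% TATAAA, 6.75% AP-1 and 1.55% the cAMP response element. STAT matches were in 7.02% and the interferon-stimulated element in 2.98% of all windows, and in none of the 8 windows of the 7 members. These are letter matches and were not tested as binding sites.

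Library totals ran from 15128913 to 17592105 counts. One library of the cKO basal group, replicate 2, stood apart with 17220 genes detected against 24303 to 26056 elsewhere, and cKO EAE replicate 3 had 6.84 CPM (counts scaled to a fixed library size) of the MHC class II chain gene Cd74 against 345 to 2759 in the other 5 EAE libraries. Values are therefore given with and without these 2 libraries. Xist was at 309 to 796 CPM in the 6 basal libraries and at most 0.292 in the 6 EAE libraries, and the Y-linked Ddx3y was at 0 in basal and 70.3 to 77.0 CPM in EAE libraries, so disease and sex cannot be told apart in any EAE to basal comparison. Drd2 was not lower in the cKO, which held 17.6, 33.3 and 34.7 CPM in the basal libraries against 26.5, 19.4 and 19.7 in their controls, and 6.72, 12.4 and 19.4 against 8.87, 8.99 and 9.61 in the EAE libraries. A whole-gene count of whole cord does not check a deletion limited to 1 cell type. All 8 Hox genes listed as marks of cord position were detected in every library, and Hand2, a marker of sympathetic neurons, was at 0 in all 12.

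Levels between genes were compared as CPM per kb of gene length. In control basal cord Qdpr was the highest at 169.9 ± 40.2 (SD, n = 3), followed by Pcbd1 at 12.1 ± 1.67, Spr at 9.65 ± 1.89, Pts at 3.71 ± 0.991, Ddc at 3.66 ± 0.310, Th at 3.52 ± 0.537 and Gch1 at 0.481 ± 0.110. The libraries of Pcbd1 and Spr overlapped in this order, as did those of Pts, Ddc and Th. The gene of the limiting enzyme was thus the lowest of the 7 and a gene of cofactor recycling the highest. In control EAE the scale ran from Qdpr at 66.8 ± 8.79 to Ddc at 1.08 ± 0.305, with Gch1 at 2.04 ± 0.546, so that Gch1 no longer had the lowest mean, although its lowest library overlapped Ddc. The plot of length-scaled levels shows this shift.

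**Figure D1:**
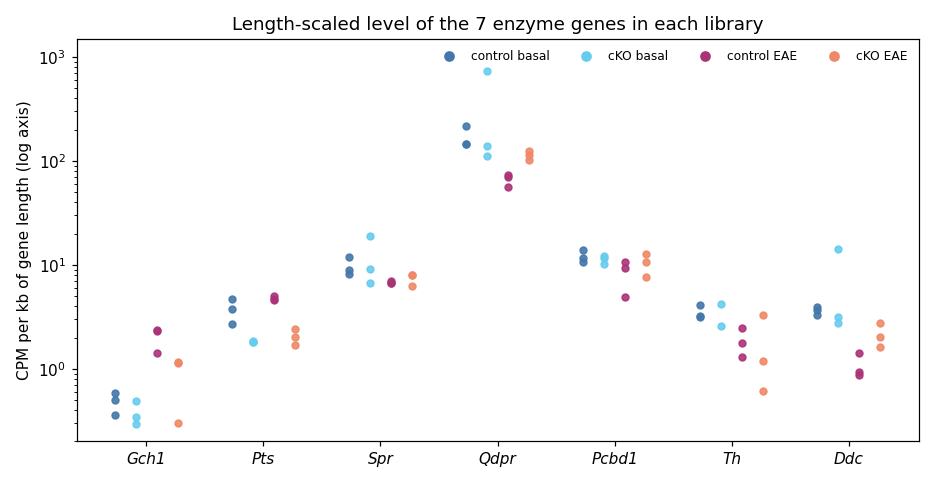
CPM per kb of gene length on a log axis for the 7 genes, 1 point per library, coloured by group. Qdpr lies above all other members in every library, and Gch1 moves from the lowest mean in control basal (0.481) to a mean above those of Ddc and Th in control EAE (2.04); the Th value of 0 in cKO basal replicate 2 cannot be drawn on this axis.

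Gch1 was the only member that was higher in EAE than in basal control cord without overlap between the libraries. All levels that follow are CPM after TMM normalisation, which scales libraries by the trimmed mean of gene ratios. Gch1 was at 3.62, 3.14 and 2.26 in control basal cord, 1.86, 3.09 and 2.14 in the cKO basal libraries, 14.6, 8.81 and 14.8 in control EAE cord and 7.29, 7.12 and 1.88 in the cKO EAE libraries. Every control EAE library lay above every other library, and the cKO EAE group held 2 intermediate libraries and 1 at the basal level. The group means were 3.01 ± 0.689, 2.36 ± 0.644, 12.7 ± 3.41 and 5.43 ± 3.08 (SD, n = 3). EAE to basal ratios were 4.24 in control and 2.30 in cKO, or 3.60 in cKO without the 2 libraries that stand apart. On the log2 scale the EAE response was 2.08 (SE 0.48) in control and 1.21 (SE 0.48) in cKO, and the difference between the responses was -0.87 (SE 0.67). Between genotypes at EAE the log2 fold change was -1.19 (SE 0.49), or -0.78 (SE 0.24) without cKO EAE replicate 3. The groups also did not overlap without that library.

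Leukocyte markers moved with Gch1 between groups. All marker lists were chosen with earlier results of these data known, so calls of their genes are a description. The summed level of 10 leukocyte genes was 18.8 to 31.4 CPM in control basal, 17.3 to 25.9 in cKO basal, 2685 to 6984 in control EAE and 900, 1563 and 42.8 in cKO EAE. The cKO EAE library with Gch1 at 1.88 was the one with the leukocyte sum of 42.8. Within control EAE the order differed, with sums of 6984, 3416 and 2685 where Gch1 was at 14.6, 8.81 and 14.8. All 10 genes passed the test as higher in EAE in control, and 0 of 10 between genotypes at EAE with all libraries, or 10 of 10 as lower in cKO without cKO EAE replicate 3. Microglial markers had a summed level of 209.6 to 224 CPM in control basal and 1155 to 1245 in control EAE, and 583, 1022 and 233 in cKO EAE. In control 7 of 8 microglial genes were higher in EAE, or 8 without the 2 libraries that stand apart. Of all tested genes 17.1% passed in that comparison, or 45.8% without the 2 libraries. Between genotypes at EAE 0 of 8 microglial genes passed, with all libraries and also without cKO EAE replicate 3. The part of these cells in the Gch1 level was not tested, and in whole tissue a change in the number of cells of a type and a change in RNA per cell cannot be told apart.

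The Pts libraries were separated by genotype, and within each genotype the EAE and basal ranges overlapped. It was at 28.6, 16.5 and 22.8 CPM in control basal cord, 11.4, 11.1 and 11.1 in the cKO basal libraries, 28.3, 30.6 and 28.1 in control EAE cord and 12.3, 14.8 and 10.4 in the cKO EAE libraries. All 6 cKO libraries lay below all 6 control libraries, the highest cKO value being 14.8 and the lowest control value 16.5. The group means were 22.6 ± 6.04, 11.2 ± 0.161, 29.0 ± 1.35 and 12.5 ± 2.20. Relative to control, cKO cord differed by -1.01 (SE 0.28) on the log2 scale without disease and by -1.18 (SE 0.15) with it. The EAE response was 0.36 (SE 0.22) in control and 0.16 (SE 0.23) in cKO, with a difference of -0.20 (SE 0.32). Both libraries that stand apart sat inside this pattern, at 11.1 and 10.4.

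No other member was separated in all 6 against 6 libraries. Of 18601 tested genes, 29 (0.156%) did not overlap between the genotypes in this way, 8 higher and 21 lower in cKO. Pts lies on chromosome 9 (50521617 to 50528724, minus strand, mm10), 1113 kb from Drd2 (49340627 to 49408177, plus strand). Of the 29 genes, 5 began within 5 Mb of the start of Drd2, out of 111 tested genes there, which is 4.5%, against 24 of 18490 elsewhere, which is 0.13%. The 5 were Sik3, Gm40518, Nxpe4, Htr3a and Pts, a set named after its values were seen. Sik3 was higher in cKO, at 258 to 306 CPM against 208 to 251 in control, and the others were lower. Gm40518, a long intergenic RNA, was at 0 in all 6 cKO libraries and 0.288 to 1.99 CPM in control, and Htr3a, a serotonin receptor subunit gene, was at 0.818 to 1.91 against 2.48 to 6.35. Nxpe4, at 7.68 to 12.6 CPM against 13.5 to 30.0, was also the gene with the profile most like that of Pts over the 12 libraries. Of the 13 genes between Drd2 and Pts, 5 were tested over the 12 libraries and 0 of these were separated by genotype. In the genotype contrast at EAE 4 of the 13 were tested and 0 passed by edgeR, and 3 of the 4 had lower fitted levels in cKO, with a median log2 fold change of -0.55. At basal 1 of the 4 did, with a median of 0.11. The effect of the Drd2 deletion and that of any other sequence difference linked to the modified chromosome cannot be told apart in this design.

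**Figure D2:**
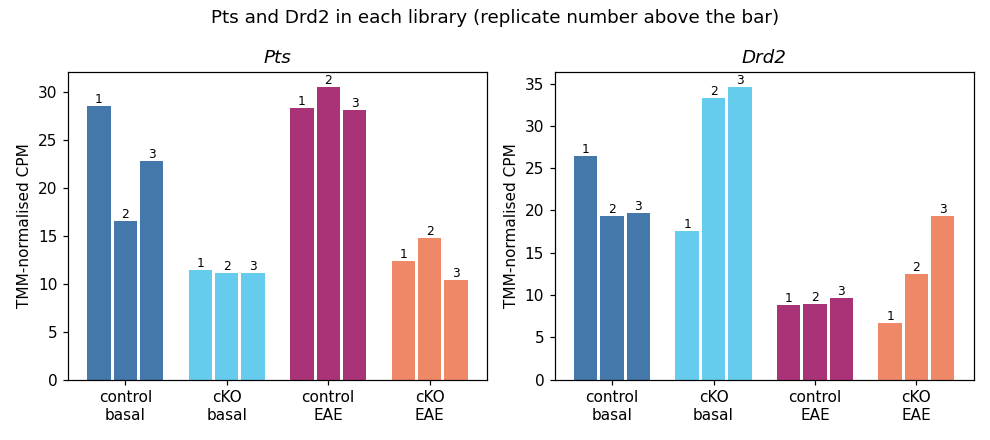
TMM-normalised CPM of Pts (left) and Drd2 (right), 1 bar per library from 0, with the replicate number above it. The 6 cKO bars of Pts, 10.4 to 14.8, all lie below the 6 control bars, 16.5 to 30.6, while the Drd2 bars of the genotypes overlap at basal and at EAE.

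Spr, the gene of the last synthetic step, varied little outside 1 library. It was at 41.8, 29.3 and 31.5 CPM in control basal cord, 32.7, 67.2 and 23.7 in the cKO basal libraries, 25.1, 23.5 and 23.6 in control EAE cord and 28.1, 22.4 and 28.2 in the cKO EAE libraries. The value of 67.2 belongs to cKO basal replicate 2. The TMM factor of that library was 0.728, against 1.01 to 1.06 in the others, which raises its CPM. By library total its Spr level was 48.9 CPM, against 42.4 in control basal replicate 1. The 3 control EAE libraries lay below the 3 control basal libraries, the log2 fold change being -0.51 (SE 0.33), and the genotypes overlapped at basal and at EAE. The means were 34.2 ± 6.71, 41.2 ± 23.0, 24.1 ± 0.856 and 26.2 ± 3.30.

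**Figure D3:**
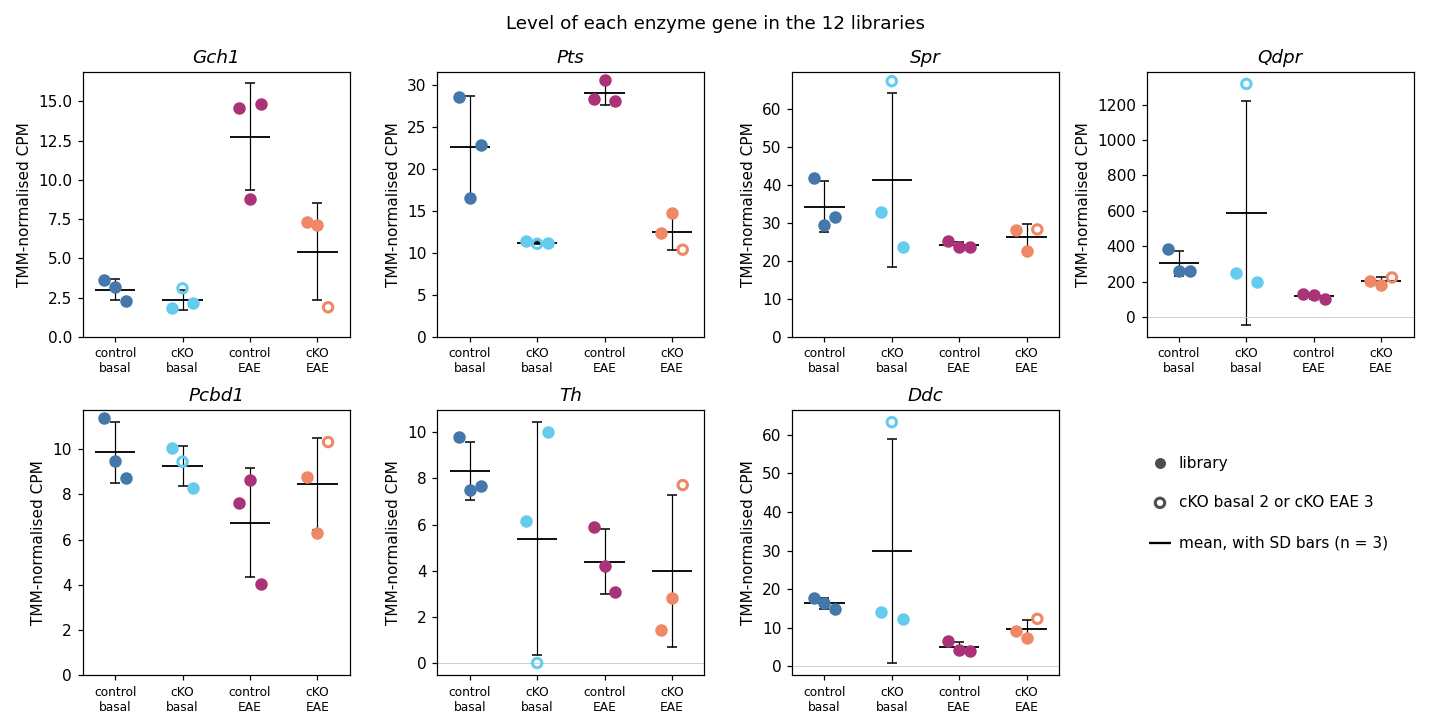
TMM-normalised CPM of each of the 7 genes by group, 1 point per library, with the mean as a line and SD bars (n = 3). Open points are cKO basal replicate 2 and cKO EAE replicate 3. The first lies above its group for Spr (67.2), Qdpr (1316) and Ddc (63.3) and at 0 for Th. By library total, without the TMM factor, these values are 48.9, 958 and 46.1 CPM.

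Qdpr, which regenerates the cofactor, was lower in control EAE than in any other group. It was at 387, 261 and 264 CPM in control basal cord, 250, 1316 and 200 in the cKO basal libraries, 131, 126 and 102 in control EAE cord and 204, 184 and 225 in the cKO EAE libraries. The 3 control EAE libraries lay below the other 9, and cKO basal replicate 2 lay far above all of them. The cKO basal mean of 589 ± 631 became 225 ± 35.4 (SD, n = 2) without that library. The EAE response in control was -1.35 (SE 0.59) on the log2 scale. In cKO it was -1.53 (SE 0.59) with all libraries and -0.22 (SE 0.21) without the 2 that stand apart. The difference between the responses went from -0.18 (SE 0.81) to 1.12 (SE 0.27) in the same way, so its direction rested on them. At EAE the genotypes differed by 0.81 (SE 0.13), with no overlap. At basal the fold change was 0.98 (SE 0.77), and -0.43 (SE 0.22) without cKO basal replicate 2.

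Pcbd1, the dehydratase of the recycling pair, had a log2 SD of 0.390 over the 12 libraries, against 0.448 for Spr. Without cKO basal replicate 2 these were 0.405 and 0.268. It was at 11.4, 9.49 and 8.72 CPM in control basal cord, 10.05, 9.45 and 8.28 in the cKO basal libraries, 7.61, 8.63 and 4.02 in control EAE cord and 8.79, 6.28 and 10.3 in the cKO EAE libraries. The control EAE libraries lay just below the control basal ones, 8.63 against 8.72 at the edge, with a log2 fold change of -0.55 (SE 0.31). The genotypes overlapped at both times, at -0.08 (SE 0.25) in basal and 0.37 (SE 0.33) in EAE cord. The group means were 9.86 ± 1.36, 9.26 ± 0.901, 6.75 ± 2.42 and 8.46 ± 2.04.

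Th, the cofactor-dependent enzyme of catecholamine synthesis, was at low levels everywhere. It was at 9.78, 7.50 and 7.67 CPM in control basal cord, 6.16, 0 and 10.0 in the cKO basal libraries, 5.88, 4.20 and 3.09 in control EAE cord and 1.44, 2.81 and 7.71 in the cKO EAE libraries. The 0 was cKO basal replicate 2, where a count of 0 allows up to 0.198 CPM of the library total by counting error, and the 7.71 was cKO EAE replicate 3. Control EAE lay below control basal, at a log2 fold change of -0.92 (SE 1.01), or -0.91 (SE 0.29) with the spread estimated without the 2 libraries. In cKO the response was -0.45 (SE 1.01) with all libraries and -1.94 (SE 0.38) without them. At EAE the genotypes overlapped at -0.11 (SE 0.59), and without cKO EAE replicate 3 the cKO libraries were lower at -1.01 (SE 0.38). The means were 8.32 ± 1.27, 5.39 ± 5.05, 4.39 ± 1.41 and 3.99 ± 3.30 (SD, n = 3).

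Ddc, which completes dopamine and serotonin synthesis and does not itself use the cofactor, followed Qdpr. It was at 17.6, 16.5 and 14.8 CPM in control basal cord, 13.9, 63.3 and 12.2 in the cKO basal libraries, 6.40, 4.20 and 3.90 in control EAE cord and 9.02, 7.24 and 12.3 in the cKO EAE libraries. Every control EAE library lay below every other library, and cKO basal replicate 2 again lay far above. The EAE response was -1.75 (SE 0.56) in control. It was -1.65 (SE 0.56) in cKO, or -0.70 (SE 0.24) without the 2 libraries, and the difference between the responses then went from 0.11 (SE 0.77) to 1.05 (SE 0.31). Between genotypes at EAE the fold change was 1.01 (SE 0.28), or 0.79 (SE 0.26) without cKO EAE replicate 3, with no overlap. At basal it was 0.89 (SE 0.68), and -0.32 (SE 0.17) without cKO basal replicate 2. The means were 16.3 ± 1.38, 29.8 ± 29.0, 4.83 ± 1.36 and 9.51 ± 2.55.

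**Figure D4:**
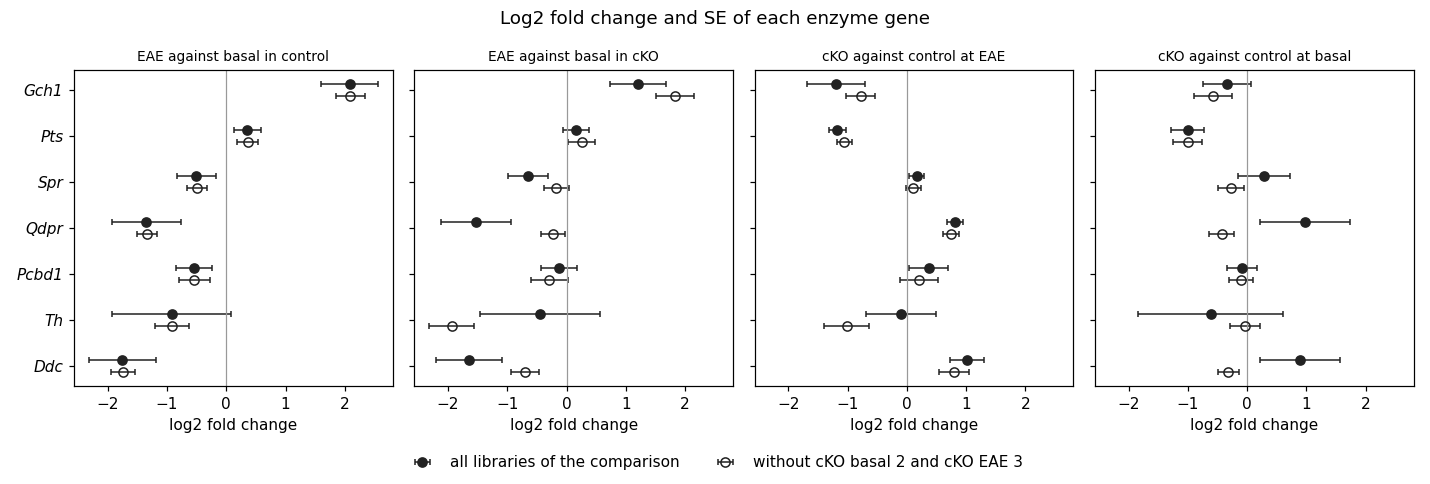
Log2 fold change of each gene with its SE (bars) in 4 comparisons, with all libraries (filled) and without cKO basal replicate 2 and cKO EAE replicate 3 (open). Qdpr in the cKO response moves from -1.53 to -0.22 and Th from -0.45 to -1.94, while Pts keeps -1.18 and -1.06 between genotypes at EAE.

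Neuronal and cord position markers moved with Qdpr and Ddc between groups, and oligodendrocyte markers did so in part. The summed level of 10 neuronal genes was 7203 to 8356 CPM in control basal, 5885 to 9539.7 in cKO basal, 2666 to 3769 in control EAE and 5511 to 7302 in cKO EAE. Of these 10 genes 6 passed the test as lower in control EAE than in control basal, or 10 without the 2 libraries that stand apart. Between genotypes at EAE 6 passed as higher in cKO, or 8 without cKO EAE replicate 3. Of all tested genes 17.1% passed in the control response, or 45.8% without the 2 libraries. Between genotypes at EAE these shares were 7.67% and 18.2%. The summed level of the 8 Hox genes was 330.0 to 384 CPM in control basal, 300.4 to 545 in cKO basal, 168 to 198 in control EAE and 235 to 281 in cKO EAE. Of the 8, 4 passed as lower in control EAE than in control basal, or 7 without the 2 libraries. Between genotypes at EAE 0 of the 8 Hox genes passed, or 2 as higher in cKO without cKO EAE replicate 3. The summed level of 8 sensory ganglion genes was 63.7 to 95.6, 29.5 to 111, 23.0 to 51.1 and 72.0 to 117 CPM in the same order. In each library 2 to 5 of them were at 0, Mrgprd in all 12. Only 3 of these 8 had enough counts for a test, and 1 passed as lower in control EAE, or 2 without the 2 libraries. The summed level of 8 oligodendrocyte genes was 63459.6 CPM in cKO basal replicate 2, against 13190.2 to 25060.4 in the other 11 libraries. It was 23874 to 25060.4 in control basal, 13190.2 to 16737 in control EAE and 18361 to 25003 in cKO EAE. Within cKO EAE the lowest sum was in replicate 3, which had the highest Qdpr and Ddc of that group. Of the 8 genes 1 passed as lower in control EAE than in control basal, or 6 without the 2 libraries. Between genotypes at EAE 0 of 8 passed, or 5 as higher in cKO without cKO EAE replicate 3. The cKO basal replicate 2 library also held the highest Qdpr, Ddc and Spr levels. The part of cell composition in these levels was not tested. The plot of levels beside marker sums shows all 12 libraries.

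**Figure D5:**
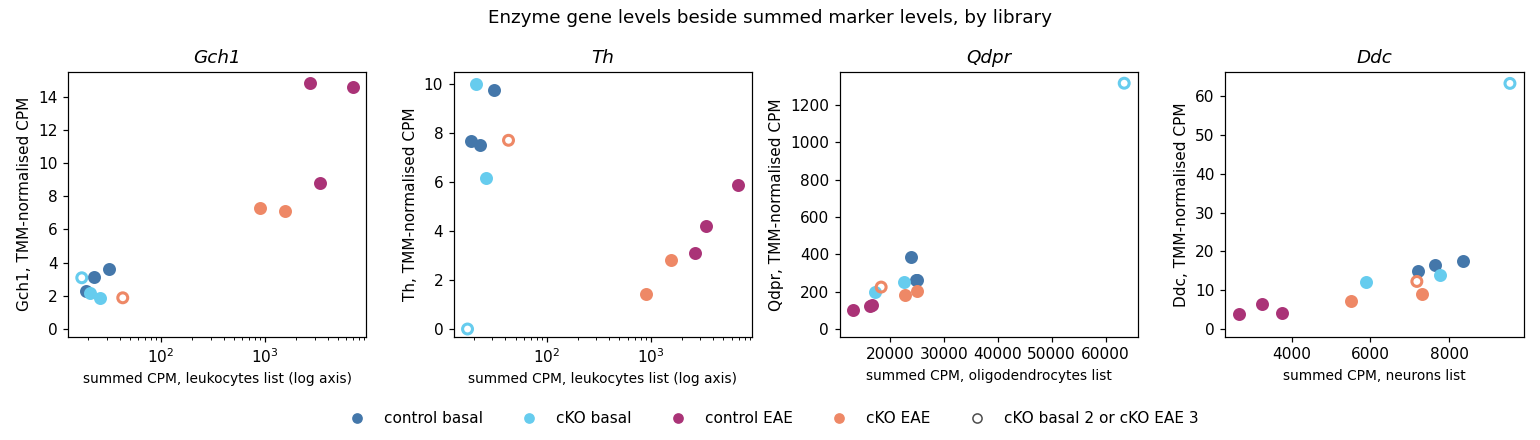
TMM-normalised CPM of Gch1, Th, Qdpr and Ddc against the summed CPM of a marker list, 1 point per library; the leukocyte axes are logarithmic and the others linear. Gch1 is at 7.12 or more in the 5 EAE libraries with leukocyte sums of 900 or more and at 3.62 or less in the other 7 libraries. Th is at 5.88 or less in those 5, and in the other 7 it is at 0 in cKO basal replicate 2 and at 6.16 to 10.0 elsewhere.

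The counts of members past an adjusted p of 0.05 are set beside the share of all tested genes, and nothing is read from them because the members were chosen from these comparisons. In the EAE response of control, 1 of 7 members passed by edgeR's quasi-likelihood test (Gch1, higher), against 17.1% of 18601 genes. Without the 2 libraries, 5 of 7 passed (Gch1 higher and Spr, Qdpr, Th and Ddc lower), against 45.8%. The Gch1 call was lost when control basal replicate 2 or 3, or control EAE replicate 1 or 3, was left out. In the EAE response of cKO, 0 of 7 passed against 0.0376% of genes, or 2 (Gch1 higher, Th lower) against 14.3% without the 2 libraries. For the difference between the responses 0 of 7 passed against 0%, with 1697 of 18601 genes at an unadjusted p below 0.05 and 91 genes called by DESeq2. Without the 2 libraries this remained 0 of 7 against 0%.

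Between genotypes at EAE, 2 of 7 members passed (Pts lower, Qdpr higher) against 7.67% of 17914 genes, and the same 2 against 18.2% without cKO EAE replicate 3. Both calls were lost when any of the 3 control EAE libraries or cKO EAE replicate 1 was left out. They were also lost with all 12 libraries in 1 fit and with the replicate number as a block. In each of those fits 0 genes of the whole table passed. At basal 0 of 7 passed against 0% of 17133 genes, with 31 genes at an unadjusted p below 0.05 and 1 gene called by DESeq2, and 0 of 7 against 0% without cKO basal replicate 2. Members whose groups did not overlap numbered 6 of 7 in the EAE response of control, where this held for 56.8% of genes, and 0 in that of cKO, where it held for 15.6%. Between genotypes they numbered 4 at EAE, against 46.6% of genes, and 1 at basal, against 5.86%.

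The order of the 4 groups differed between members. By mean, Gch1 ran from control EAE through cKO EAE to the 2 basal groups, and only the step between the EAE groups was free of overlap. For Pts both control groups came first and both cKO groups last, without overlap between the genotypes. For Spr, Qdpr and Ddc the order was cKO basal, control basal, cKO EAE and control EAE; the basal groups overlapped, and the EAE groups were apart for Qdpr and Ddc and overlapped for Spr. The first place of cKO basal rested on its replicate 2: without it the cKO basal means were 28.2 for Spr, 225 for Qdpr and 13.1 for Ddc, below the control basal means of 34.2, 304 and 16.3, and control basal came first. For Pcbd1 the order was control basal, cKO basal, cKO EAE and control EAE, and Th differed from it only in that cKO EAE came last, with overlap between neighbours at each step.

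The likeness of profiles was measured as the root mean square difference of centred log2 CPM over the 12 libraries, among 14342 genes of at least 1 CPM on average. Among members Qdpr and Ddc were the closest at 0.265, and Qdpr and Th the farthest at 2.37. Without cKO basal replicate 2, where Th was at 0 and Qdpr at 1316 CPM, Qdpr and Ddc were again the closest at 0.277, the distance of Qdpr and Th was 0.718, and Ddc and Gch1 were the farthest at 1.73. The 3 nearest genes to Gch1 were Plekhf2 (0.247), Ltbr (0.249) and E2f7 (0.267), where Gch1 itself had an SD of 1.09. Near Pts were Nxpe4 (0.273) and Cdk4 (0.295). For Spr they were Acp1 (0.0947), Rtn4ip1 (0.0973) and Prdx3 (0.0980). For Qdpr they were Calb2 (0.146), Hhatl (0.148) and Ndufa4 (0.155). For Pcbd1 they were Ecel1 (0.192), Ccne1 (0.193) and Bcas3 (0.196). For Th the nearest genes were less close, Skor2 (0.464), Ybx2 (0.482) and Tnfaip8l3 (0.498). For Ddc they were Pcp4 (0.219), Fabp3 (0.237) and Qdpr. Without cKO basal replicate 2 none of the 3 nearest genes of Qdpr, Th and Ddc was the same, 2 of 3 were the same for Gch1 and Pcbd1, and 1 of 3 for Pts and Spr.

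Beyond the 7 members, 22 further genes of cofactor supply, cofactor use and amine completion, storage and uptake were followed, of which 14 had enough counts in the fit over 12 libraries. These genes too were chosen with earlier results of these data known, so their calls and adjusted p are a description. In the EAE response of control, 3 of 14 passed the quasi-likelihood test with Benjamini-Hochberg adjustment over all genes, 2 higher and 1 lower, where 17.1% of all 18601 tested genes passed. These 14 had a median log2 fold change of -0.65 against -0.01 over all tested genes. Nos2, the inducible nitric oxide synthase and a user of the cofactor, was at 0.445, 0.717 and 0.607 CPM in control basal and 103, 50.1 and 115 in control EAE. It rose by 7.22 on the log2 scale (SE 1.30, adjusted p = 0.00461). In cKO basal it was at 0.755, 0 and 0.536 and in cKO EAE at 26.6, 12.6 and 0.304 CPM, the last being the library with the lowest leukocyte sum at EAE. Its ordering of the EAE libraries put the 3 control libraries above the 3 cKO libraries, as for Gch1.

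Hdc, which makes histamine, rose in control EAE by 2.35 (SE 0.43, adjusted p = 0.00502), from 1.27, 1.60 and 1.16 CPM to 5.59, 5.20 and 9.84. Cbr1, a carbonyl reductase that can stand in for Spr, fell by 0.83 (SE 0.21, adjusted p = 0.0207), from 68.5, 51.9 and 51.1 CPM to 30.4, 38.5 and 27.7. The calls of Nos2 and Hdc held with each library left out in turn, and that of Cbr1 was lost without control basal replicate 1, control EAE replicate 1 or control EAE replicate 3. In the EAE response of cKO 0 of 14 passed the quasi-likelihood test (4 had an unadjusted p below 0.05, and DESeq2 called 1), while 2 (Nos2 and Hdc, both higher) passed without the 2 libraries. For the difference between the responses 0 of 14 passed, with 1 at an unadjusted p below 0.05 and 0 by DESeq2.

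Between genotypes at EAE 2 of 13 of these genes passed, both higher in cKO, where 7.67% of all tested genes passed, 1099 higher and 275 lower. These 13 had a median log2 fold change of 0.29 against 0.00 over all tested genes. Nos1, the neuronal nitric oxide synthase, was higher by 0.60 (SE 0.13, adjusted p = 0.0469), at 71.1, 61.2 and 76.9 CPM in cKO against 48.1, 51.3 and 42.2 in control. Agmo, a cofactor-dependent enzyme that cleaves ether lipids, was higher by 0.83 (SE 0.19, adjusted p = 0.0488), at 16.0, 11.9 and 12.6 against 9.22, 7.21 and 6.93. Without cKO EAE replicate 3, 4 of 13 passed: Nos1 and Agmo higher, Nos2 and Akr1b3 lower. The calls of Nos1 and Agmo were lost, as were all others, without any 1 of the control EAE libraries or without cKO EAE replicate 1. The same held with all 12 libraries in 1 fit and with the replicate number as a block. Agmo was also lost with DESeq2 size factors. At basal 0 of 14 passed, with 0 at an unadjusted p below 0.05 and 0 by DESeq2.

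Of the genes that were not tested, Pnmt was at 0 in all 12 libraries, and Gchfr, Tph1, Dbh, Slc6a2, Slc6a3 and Slc6a4 had too few counts. Dbh and Slc6a2 belong to noradrenaline neurons, Slc6a3 to dopamine neurons and Slc6a4 and Tph1 to serotonin handling. Of the 8 markers of monoaminergic and sympathetic cells 2 or 3 were at 0 in each library, among them Hand2 in all 12. Their summed level, 570.1 to 654 CPM in control basal, 479 to 1059 in cKO basal, 195 to 260 in control EAE and 333 to 426 in cKO EAE, moved with Ddc, and its part in the Th and Ddc levels was not tested.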

How the data were processed

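Read counts per gene were deposited by the authors as 1 table of 54532 genes and 12 libraries. Per the submitters' processing notes HISAT2 2.0.5, the mm10 build and featureCounts 1.5.0-p3 were used; the strand setting, the annotation release and the treatment of multi-mapping reads are not given in the sources used here. Without a known strand setting, reads of Qdpr and Ddc cannot be told apart from those of antisense genes that overlap them, which held 0 to 2 counts per library. Gch1 overlaps 2 processed pseudogenes, 1 on each strand, which held 0 to 5 counts per library, so its reads may be split with them.

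Genes with few counts were removed with filterByExpr, and the counts were scaled by TMM and tested with edgeR 4.0.16 (quasi-likelihood, Benjamini-Hochberg, threshold 0.05) in R 4.3.3 with limma 3.58.1. EAE responses and their difference came from 1 fit of 12 libraries (18601 genes), genotype contrasts from the 6 EAE (17914) or 6 basal (17133) libraries. The SE is the absolute log2 fold change divided by the square root of F. The scripts were tested on simulated data. Alternatives were DESeq2 1.42.0, voom with sample weights, other scaling and filtering, a replicate block and left-out libraries; likeness without cKO basal replicate 2 was added after seeing the data. The members and all gene lists were chosen with earlier results of these data known. Text names all members, other pathway genes called in a contrast (at most 6), and the 3 nearest profiles per member; some items covered by this rule are not reported here. The 11 marker lists were neurons, leukocytes, microglia, endothelium, astrocytes, oligodendrocytes, Schwann cells, ependymal cells, sensory ganglion neurons, monoaminergic and sympathetic cells, and cord position.

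Replicates are biological by their titles; whether 1 mouse or several made a library is not stated. Depths of 15128913 to 17592105 counts set the counting precision, and Gch1 rests on 102 to 657 summed counts per group.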

Additional observations from a re-analysis of the deposited data

Results flagged for a closer look

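Of the 22 other pathway genes, 14 of them tested, 6 showed every control EAE library moving one way from the basal mean and every cKO EAE library the opposite way. The share of all tested genes with this pattern was not computed, so nothing is read from the count. By edgeR's test of the difference itself none of the 6 passed, with adjusted p from 0.547 to 0.825. The difference between the responses, cKO minus control on the log2 scale, was -1.28 (SE 0.63) for Akr1b3, a carbonyl-reducing enzyme, and 0.78 (SE 1.01) for Nos1. It was 0.93 (SE 0.35) for Agmo and 1.19 (SE 0.56) for Dnajc12, a chaperone of the hydroxylases. For the vesicular monoamine transporter genes it was 1.96 (SE 1.13) for Slc18a1 and 0.78 (SE 0.45) for Slc18a2. Without cKO basal replicate 2 and cKO EAE replicate 3 the values were -0.28, 0.14, 1.11, 0.64, 1.49 and 0.50 in the same order, and the opposite directions remained for Agmo alone.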

How the results depend on the processing

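Counts of calls depended more on the 2 libraries that stand apart and on the tool than on scaling. Main counts for the EAE response of control were 3183 genes, 1 member and 3 other pathway genes. They became 4483, 2 and 5 with DESeq2's Wald test, 11120, 6 and 10 with voom and sample weights, 8673, 5 and 9 without the 2 libraries, and 8149, 5 and 9 with only the 6 control libraries. For the EAE response of cKO, 7, 0 and 0 became 493, 0 and 1 without a filter, 1239, 0 and 1 with DESeq2, 3648, 3 and 2 with voom, 2715, 2 and 2 without the 2 libraries, and 0, 0 and 0 with 6 libraries. For the difference, 0 genes became 91 with DESeq2 and 2999 with voom, which called 2 members and 1 other gene. Between genotypes at EAE, 1374, 2 and 2 became 1029, 2 and 1 with DESeq2 size factors, 4131, 4 and 4 with DESeq2, 5790, 3 and 4 with voom, 3336, 2 and 4 without cKO EAE replicate 3, and 0, 0 and 0 with all 12 libraries in 1 fit. At basal 0 became 1 gene with DESeq2. The cause was not tested.

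Leaving out 1 library at a time gave 1724 to 8166 genes, 0 to 4 members and 2 to 9 others for the control response, 5 to 1075, 0 to 1 and 0 to 1 for the cKO response, 0 for the difference and for basal, and 0 to 3418, 0 to 3 and 0 to 4 between genotypes at EAE. Same-numbered libraries deviated together at correlations of -0.458 to 0.371, with 3 of 12 over 0.1. Deviations from the mean of 3 libraries are tied to one another. These correlations therefore cannot settle whether the numbers pair the samples. With a replicate block the genotype contrast at EAE gave 0 genes, 0 members and 0 others. Under all alternatives together, member fold changes moved by less than the pooled SD between replicates in 553 values and by more in 28. That SD was taken with the 2 libraries that stand apart included, so it is wide for the genes they shift. Some left-out libraries were also outside the contrast, so this tally is not a measure of robustness. Without the 2 libraries, 9 values moved by more than the SD and 26 by less. Depth limits Th and Gch1 most, at a few CPM each.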

Other observations

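The marker lists not described above gave these values. The summed level of 8 astrocyte genes was 2988 to 3033 CPM in control basal and 3025 to 3096 in control EAE, with 2 genes higher and 3 lower by edgeR. The endothelial sum was 185 to 192 and 305 to 367, with 1 of 8 genes higher. Ependymal genes were at 31.1 to 53.7 and 40.3 to 47.2, with 0 of 8 called. Schwann cell genes were at 253 to 294 and 312 to 333, with 1 of 8 higher, and reached 789 CPM in 1 cKO EAE library. With the 2 libraries that stand apart left out, 45.8% of all tested genes passed in this comparison. Then 4 astrocyte genes were higher and 3 lower, 8 of 8 endothelial genes higher, 0 ependymal genes called and 2 Schwann cell genes higher.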
